A study of Homo sapiens with 24 samples.

Results

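H82, a small-cell lung cancer line, was compared after 24 h with 0.1 nM lurbinectedin (3 libraries) and after 24 h with DMSO, the solvent of the drug (3 libraries). The 6 libraries were chosen by their sample labels, out of 24 in a series that treated 4 such lines (H82, SHP-77, H187 and H209) in the same 2 ways. H82 and SHP-77 are the lines that the series design names as low in ISL1, a LIM homeodomain transcription factor, and H187 and H209 are named as high. All lines were kept in RPMI-1640 with fetal bovine serum, and the replicates are stated to be biological, so they are cultures of a single line, and the labels give no genetic change in any group. The measurement was total RNA after ribosomal depletion, read as counts per gene. The question was which genes changed with the drug in H82, and which of these changes held when any of the 6 libraries, above all DMSO 3, was left out.

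Lurbinectedin forms adducts on guanine from the DNA minor groove, which stall elongating RNA polymerase II and lead to DNA breaks. An obstacle that is met at random along a template is met more often in a long gene than in a short one, and many of the longest human genes encode adhesion and synaptic proteins of neurons. Small-cell lung cancer is a neuroendocrine tumour that expresses part of this neuronal programme, so such genes are active in its cell lines.

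H82 expressed markers of the tumour type its label gives. Of 34 neuroendocrine markers on the list 29 were measured, and the levels of only some are given here. NEUROD1, the transcription factor that marks the neurogenic subtype of small-cell lung cancer, stood at 269, 258 and 276 CPM with DMSO and 281, 272 and 276 CPM with lurbinectedin (CPM, counts scaled to library size, here always in the order of replicates 1, 2 and 3). MYC stood at 2017, 1946 and 2019 CPM with DMSO and 1888, 1908 and 1901 CPM with lurbinectedin. For neither was a change detected, with log2 fold changes of 0.05 ± 0.038 and -0.07 ± 0.038 (log2 of lurbinectedin over DMSO, ± standard error of the edgeR fit). The vesicle protein SYP ranged from 239 to 258 CPM over the 6 libraries, the granule protein CHGB from 38.2 to 42.7 CPM and the adhesion molecule NCAM1 from 152 to 171 CPM. CHGA, SCG2, NEUROD2, NHLH2, POU2F3 and YAP1 were not analysed here. Of 19 markers of blood, endothelium, fibroblasts and lung epithelium, 4 were measured, and their summed level was 2.93 to 4.11 CPM with DMSO and 4.19 to 4.46 CPM with lurbinectedin. Of the 4, 1 was called higher, in the fit to 6 libraries and 2 of the 6 fits that left out a library. PTPRC, PECAM1, DCN and SFTPC, which define these cells, were among the 15 not analysed here. The sums of the 2 groups did not overlap, and the part of such cells in the results was not tested.

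The libraries held 30425305 to 36415190 counts, of which 3.10% to 4.63% fell on the abundant RNAs RN7SK, RN7SL1, RN7SL2 and RPPH1. DMSO 3 stood apart from its group. Over genes above 16 CPM, the SD of the log2 difference between DMSO 3 and the other DMSO libraries was 0.107 and 0.124, against 0.114, 0.0956 and 0.0971 between DMSO 3 and lurbinectedin 1, 2 and 3. DMSO 1 and 2 differed from each other by 0.0835. DMSO 3 differed from the other DMSO libraries in the level of genes by the GC content of their transcripts. In the fifth of genes richest in GC, the median log2 deviation from the mean of all 6 libraries was -0.056 in DMSO 1 and -0.070 in DMSO 2, but 0.015 in DMSO 3, next to 0.042, 0.022 and 0.042 in the lurbinectedin libraries. By gene span DMSO 3 lay with its own group: for genes of 300 kb or more the median deviations were 0.068, 0.059 and 0.080 with DMSO and -0.088, -0.058 and -0.049 with lurbinectedin. Results are therefore given with and without DMSO 3, and with a correction for transcript GC content in each library. Because counts are shares of a library, fewer cells of a kind, less RNA per cell and a change in total RNA cannot be told apart here.

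**Figure D1:**
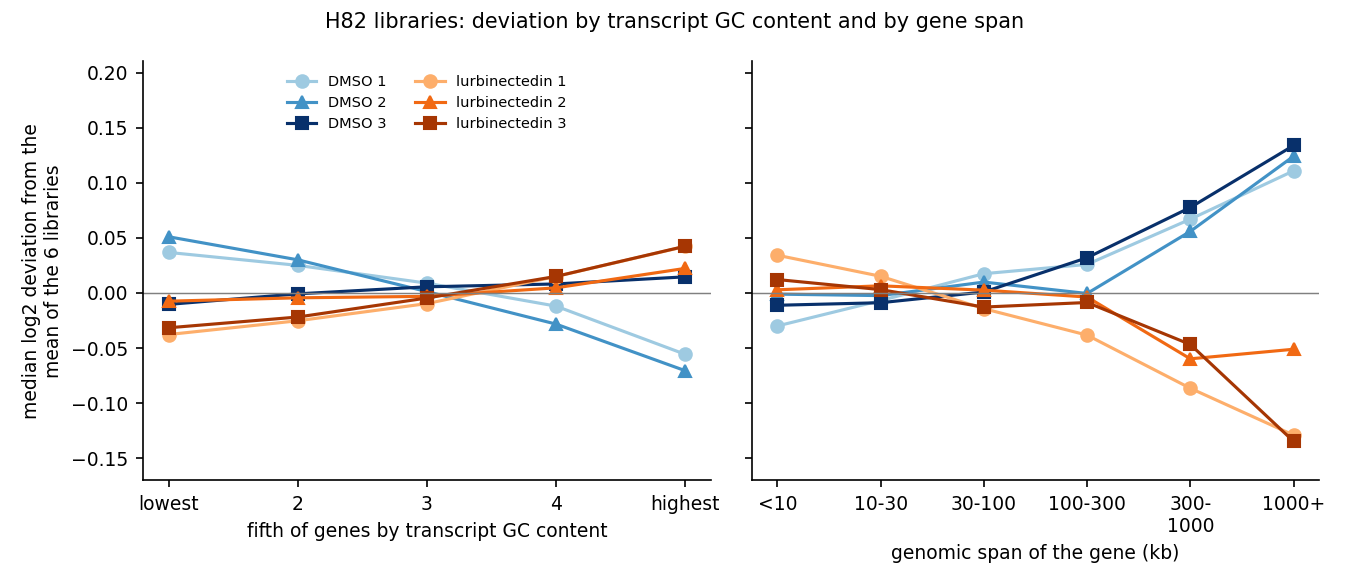
Median log2 deviation of each H82 library from the mean of the 6 libraries (vertical axis), over 5 equal groups of genes by transcript GC content (left) and over bins of genomic span in kb (right). Lines are libraries, blue for DMSO and orange for lurbinectedin; DMSO 3 lies nearer to the lurbinectedin libraries at the GC-rich end (0.015) and with the DMSO libraries for long genes, where all 3 DMSO medians at 300 to 1000 kb lie between 0.056 and 0.078.

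With all 6 libraries, edgeR's quasi-likelihood test called 395 of 13516 genes at a Benjamini-Hochberg adjusted p under 0.05, which is 2.92% of the genes tested. Of these, 186 were lower with lurbinectedin (1.38%) and the rest higher (1.55%). The changes were small: the median fold of the called genes was 1.19 upward and 1.18 downward. After the correction for GC content 182 genes were called (1.35%), 41 higher (0.303%) and 141 lower (1.04%), so the split between higher and lower calls depended on that correction. Leaving out DMSO 3 raised the count to 1397 genes (10.3%), 822 higher (6.08%) and 575 lower (4.25%), while leaving out any other library lowered it. It was 126 without DMSO 1 (0.932%), 195 without DMSO 2 (1.44%), 109 without lurbinectedin 2 (0.806%) and 93 without either lurbinectedin 1 or 3 (0.688% each). Of the 395 calls, 391 remained without DMSO 3, 176 without DMSO 2, 121 without DMSO 1, and 91, 104 and 93 without lurbinectedin 1, 2 and 3. With GC content corrected for, the counts were 386 genes without DMSO 3 (2.86%) and 182 with it.

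**Figure D2:**
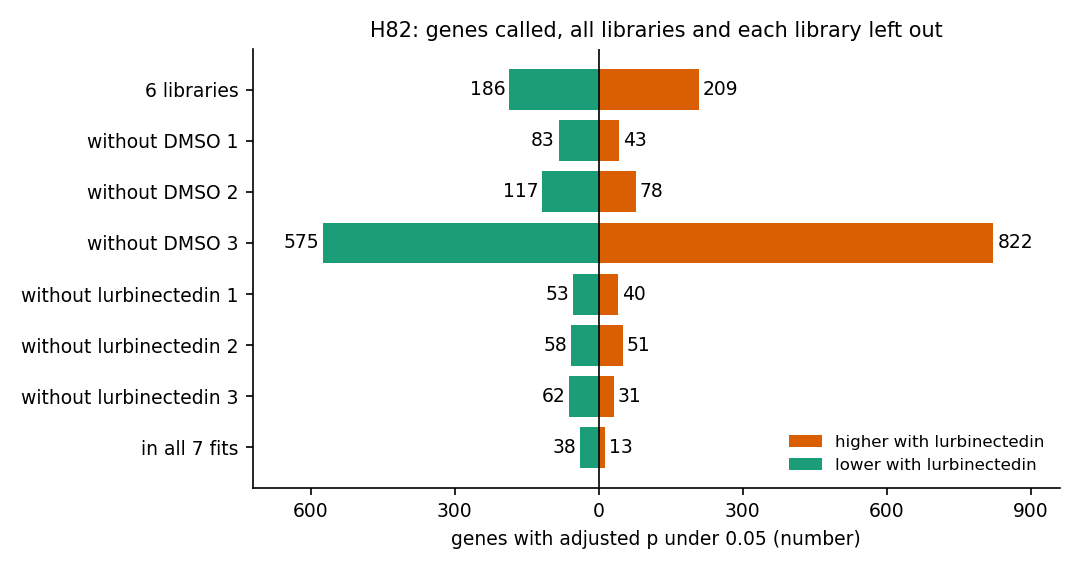
Number of genes called higher (orange, right) and lower (green, left) with lurbinectedin in H82 at an adjusted p under 0.05, for the fit to 6 libraries, for each fit without one library and for genes called in all 7 fits. The fit without DMSO 3 called 822 higher and 575 lower, and 13 higher and 38 lower genes were called in every fit.

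A gene is said to have held when it passed with the same sign in the 6-library fit and in all 6 fits that left out a library. In all, 51 genes held (0.377% of those tested), 38 lower (0.281%) and 13 higher (0.0962%). Each of the 51 is protein-coding, and in each the 3 lurbinectedin values lay on 1 side of all 3 DMSO values. Over all genes tested, 11.3% had every treated library above and 10.6% every treated library below the DMSO libraries. The genes that held lower had a median genomic span of 728 kb and those that held higher 17.3 kb, against 28.0 kb over all genes tested. Their median transcript GC contents were 43.4% and 63.0%, against 48.1%. Of the 38 lower genes, 33 span 300 kb or more, 4 are histone genes, and the last is RSU1, a regulator of integrin adhesion, of 227 kb.

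**Figure D3:**
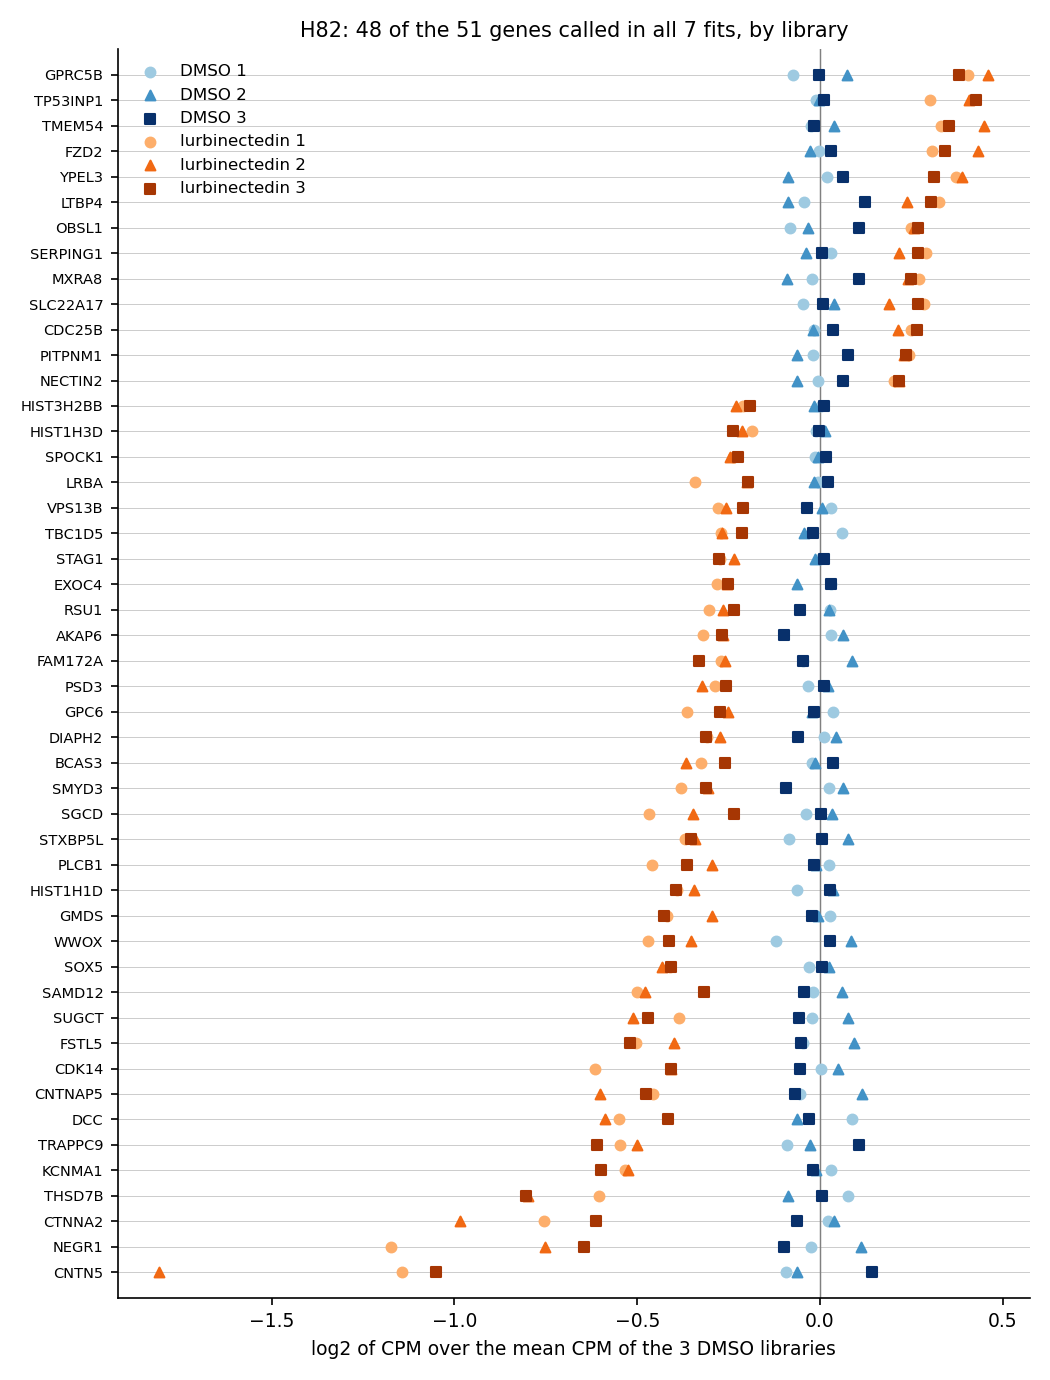
Level of 48 of the 51 genes that held, in each of the 6 H82 libraries, as log2 of its CPM over the mean of the 3 DMSO libraries (horizontal axis). Blue symbols are DMSO and orange symbols lurbinectedin libraries; no orange symbol overlaps the blue ones of the same gene, and CNTN5 (log2 fold change -1.29) and GPRC5B (0.42) mark the ends.

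Genes of neuronal adhesion and axon guidance made up the largest falls that held. DCC, the netrin receptor of growing axons (chromosome 18, 52340172 to 53535903 in hg38, a span of 1196 kb), stood at 43.5, 39.2 and 40.1 CPM with DMSO and 28.0, 27.2 and 30.7 CPM with lurbinectedin. All 3 treated libraries lay below every DMSO library (log2 fold change -0.52 ± 0.056, adjusted p = 7.12e-05), and its adjusted p stayed between 6.36e-06 and 0.00437 whichever library was left out. The GPI-anchored adhesion protein NEGR1 (chromosome 1, 71402942 to 72282594, 880 kb) stood at 4.08, 4.49 and 3.88 CPM with DMSO and 1.84, 2.46 and 2.65 CPM with lurbinectedin (-0.83 ± 0.15, adjusted p = 0.00486). CTNNA2, the alpha-catenin of neurons (1136 kb), gave 4.22, 4.27 and 3.97 CPM with DMSO and 2.46, 2.10 and 2.71 CPM with lurbinectedin (-0.78 ± 0.14, adjusted p = 0.00486). DMSO 3 lay with the other DMSO libraries in each of these genes.

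THSD7B, a thrombospondin-domain membrane protein of 912 kb, stood at 6.53, 5.83 and 6.22 CPM with DMSO and 4.07, 3.56 and 3.55 CPM with lurbinectedin (-0.74 ± 0.11, adjusted p = 0.00150). CNTNAP5, a contactin-associated protein of the neurexin superfamily (890 kb), stood at 16.6, 18.7 and 16.5 CPM with DMSO and 12.6, 11.4 and 12.4 CPM with lurbinectedin (-0.51 ± 0.073, adjusted p = 8.48e-04). GPC6, a glypican that carries heparan sulfate at the cell surface (1181 kb), was at 111, 107 and 107 CPM with DMSO and 84.4, 91.2 and 89.9 CPM with lurbinectedin (-0.30 ± 0.043, adjusted p = 8.72e-04). The largest log2 change of all 51 was that of the contactin CNTN5 (1338 kb), -1.29 ± 0.24, adjusted p = 0.00526, but at 1.5, 1.53 and 1.76 CPM in DMSO against 0.722, 0.456 and 0.771 CPM it was a gene of low counts.

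On the list of 53 long neuronal adhesion, synapse and axon genes, 36 were measured in H82. Of these, 17 were called lower and none higher, where 1.38% of all genes were called lower. Of the 17, 9 held, and the median log2 fold change of the list was -0.34, against 0.00 over all genes tested. In 27 of the 36 all treated libraries lay below all DMSO libraries, against 10.6% of all genes. Members that were called but did not hold included LSAMP (-1.46, passing 4 of the 6 leave-one-out fits), CNTN4 (-0.53, 3), UNC5C (-0.21, 3), TENM2 (-0.23, 5) and PTPRD (-0.21, 2). Not every long member was called. The axon guidance receptor ROBO1, of 1171 kb and picked after its values were seen, stood at 234, 238 and 241 CPM with DMSO and 229, 232 and 242 CPM with lurbinectedin, with overlapping groups (-0.02 ± 0.038, adjusted p = 0.821). Its partner ROBO2 (610 kb) gave -0.12 ± 0.036 (adjusted p = 0.0646). The list's called count was 20 without DMSO 3 and 16 after GC correction, where 4.25% and 1.04% of all genes were called lower.

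Long genes outside neuronal adhesion also fell and held. KCNMA1, the BK potassium channel (chromosome 10, 76869601 to 77637819, 768 kb), stood at 7.86, 7.64 and 7.6 CPM with DMSO and 5.32, 5.35 and 5.09 CPM with lurbinectedin (-0.55 ± 0.10, adjusted p = 0.00435). TRAPPC9, a subunit of the TRAPP trafficking complex (731 kb), stood at 21.0, 21.9 and 24.1 CPM with DMSO and 15.3, 15.8 and 14.6 CPM with lurbinectedin (-0.55 ± 0.066, adjusted p = 1.67e-04). Here DMSO 3 was the highest of the 6 libraries, farthest from the treated ones. CDK14, a cyclin-dependent kinase of Wnt signalling (614 kb), fell by 0.47 ± 0.065 on the log2 scale (adjusted p = 6.23e-04), the follistatin-like secreted protein FSTL5 by 0.47 ± 0.064 (adjusted p = 6.23e-04) and the SOX-family transcription factor SOX5 by 0.42 ± 0.051 (adjusted p = 1.89e-04). Among enzymes, the glutarate coenzyme A transferase SUGCT gave -0.46 and the fucose-synthesis enzyme GMDS -0.38. Signalling genes were PLCB1 (-0.37), a phospholipase C, AKAP6 (-0.28), a protein kinase A anchor, and PSD3 (-0.29), an exchange factor for ARF6. SMYD3, a methyltransferase, gave -0.33, and STAG1, a cohesin subunit, -0.26. Of the other genes that span 300 kb or more, SAMD12, STXBP5L, SGCD, BCAS3, FAM172A, TBC1D5, VPS13B, LRBA and SPOCK1, gave log2 fold changes from -0.43 to -0.24, and 3 belong to common fragile sites.

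Common fragile sites are regions that break under replication stress and that often lie within very large genes. Of 24 such genes on the list, 18 were measured, 8 were called lower and none higher, and 3 held, where 1.38% of all genes were called lower and 0.281% held lower. The median log2 fold change of the list was -0.24. WWOX, the oxidoreductase gene at FRA16D (chromosome 16, 78099413 to 79212667, 1113 kb), stood at 13.6, 15.7 and 15.1 CPM with DMSO and 10.7, 11.6 and 11.1 CPM with lurbinectedin (-0.41 ± 0.076, adjusted p = 0.00610). The formin DIAPH2 (916 kb) fell from 60.9, 62.3 and 58.0 CPM to 48.7, 49.9 and 48.6 CPM (-0.30 ± 0.044, adjusted p = 9.57e-04), and the exocyst subunit EXOC4 (813 kb) from 52.0, 48.6 and 51.9 to 41.8, 42.6 and 42.7 CPM (-0.26 ± 0.046, adjusted p = 0.00435). In each of the 3 the groups were apart with every library in place. FHIT, the diadenosine triphosphate hydrolase gene at FRA3B (1504 kb), had a larger change, from 3.07, 3.18 and 2.92 to 2.13, 1.82 and 1.85 CPM, but at these counts it was called in the 6-library fit (-0.66 ± 0.15, adjusted p = 0.0200) and in only 1 of the 6 leave-one-out fits. MACROD2 (2058 kb) likewise fell, from 3.21, 2.71 and 3.33 to 1.87, 1.55 and 2.07 CPM (-0.76 ± 0.16, adjusted p = 0.0130), and was called in 3 of the 6. DMD, the dystrophin gene of 2220 kb, picked after its values were seen, stood at 10.8, 10.6 and 10.9 CPM with DMSO and 10.2, 11.2 and 11.3 CPM with lurbinectedin, with no change detected (0.02 ± 0.078, adjusted p = 0.911).

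Across all genes the fall went with genomic span (Spearman's rho -0.33 over 12969 genes with both span and GC content, which are not independent replicates). After GC correction rho was -0.19, and rho of the uncorrected fold change with transcript GC content was 0.45. The median log2 fold change was 0.05 for genes under 10 kb, 0.02 at 10 to 30 kb, -0.01 at 30 to 100 kb, -0.03 at 100 to 300 kb, -0.16 at 300 to 1000 kb and -0.30 at 1000 kb or more. Of the 502 genes of 300 kb or more, 110 were called lower and none higher, where 1.38% of all genes were called lower. In 276 of them all treated libraries lay below all DMSO libraries, against 10.6% of all genes. Outside the neuronal list 93 of 467 were called lower, with a median of -0.16. The median of the 502 genes was -0.17 with all libraries, -0.16 without DMSO 3 and -0.15 after GC correction. In these fits 110, 152 and 83 of them were called lower, where 1.38%, 4.25% and 1.04% of all genes were. Span and transcript GC content were themselves related (rho -0.35), and the difference was there at each GC level. In genes of low, middle and high transcript GC content, 3 groups of equal size, the medians of long and shorter genes were -0.17 against -0.04, -0.17 against 0.00 and -0.11 against 0.07. Per library, the median deviation of the 249 long genes above 16 CPM was 0.069 ± 0.011 with DMSO and -0.065 ± 0.020 with lurbinectedin (SD, n = 3 each). The 2 groups did not overlap, and the exact two-sided permutation p was 0.1, the smallest that 3 against 3 libraries allow.

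The other group that fell was that of histone genes. Replication-dependent histone genes are short, without introns, lie in clusters, and supply histones in S phase from transcripts that end in a stem-loop in place of a poly(A) tail, which a total RNA library can capture. Of 70 on the list, 49 were measured, 17 were called lower and none higher, where 1.38% of all genes were called lower, and the median log2 fold change was -0.14. In 26 of the 49 all treated libraries lay below all DMSO libraries, as in 10.6% of all genes, and in 23 the groups overlapped. By class, 3 of 5 linker histone H1 genes, 6 of 14 H2A genes, 6 of 14 H2B genes, 2 of 7 H3 genes and none of 9 H4 genes were called lower. After GC correction 24 of the 49 were called lower, where 1.04% of all genes were, and without DMSO 3 the count was 19, where 4.25% of all genes were called lower. Histone genes are near-identical copies, and how reads that map to several of them were counted is not given in the sources used here, so the value of any single member is uncertain.

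HIST1H1D, a linker histone (chromosome 6, 26234212 to 26234988), stood at 118, 127 and 126 CPM with DMSO and 94.4, 97.4 and 94.2 CPM with lurbinectedin (-0.38 ± 0.042, adjusted p = 7.12e-05). HIST1H3D, an H3 gene (chromosome 6, 26196784 to 26199293), stood at 451, 459 and 454 CPM with DMSO and 399, 392 and 386 CPM with lurbinectedin (-0.21 ± 0.036, adjusted p = 0.00363). HIST3H2BB, an H2B gene outside the main cluster (chromosome 1, 228458107 to 228458558), stood at 226, 223 and 227 CPM with DMSO and 195, 192 and 197 CPM with lurbinectedin (-0.21 ± 0.037, adjusted p = 0.00435). In all 3 the 2 groups were narrow and apart, and their largest adjusted p in the fits that left out a library was 0.00437, 0.0461 and 0.0364. HIST1H2BJ fell from 126, 142 and 139 to 115, 108 and 118 CPM (-0.25 ± 0.047, adjusted p = 0.00560) and passed 5 of the 6 leave-one-out fits. Of 10 measured replacement and variant histone genes 1 was called, lower, and it held, where 1.38% of all genes were called lower. Among the other 9, picked after their values were seen, H3F3B, an H3.3 gene, gave -0.04 ± 0.037, adjusted p = 0.659, and H2AFZ, the H2A.Z gene, -0.03 ± 0.039, adjusted p = 0.758. Of 16 genes of histone mRNA processing and histone gene transcription none was called, where 2.92% of all genes were. Lists of these sizes cannot show fewer calls than that share. NPAT, the activator of histone genes, gave -0.09 ± 0.045, adjusted p = 0.335.

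**Figure D4:**
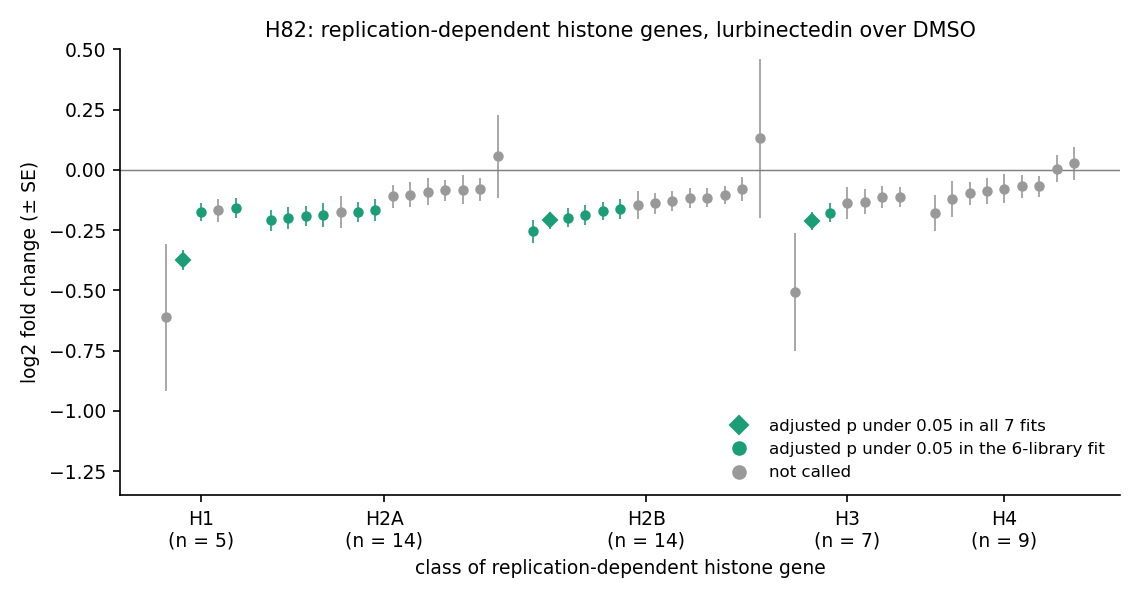
Log2 fold change (± SE) of each of the 49 measured replication-dependent histone genes in H82, ordered by class and then by value; green symbols have an adjusted p under 0.05, diamonds held in every fit. The called genes are all below 0 and none belongs to the H4 class.

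The promoters of the 3 replication-dependent histone genes that held are shown, as the members of this list that passed all 6 leave-one-out fits, with the 150 bases before the start of each gene, 5′ to 3′ on the gene's strand, from RefSeq (GRCh38.p14). Capitals mark matches to CCAAT, to the TATA motif TATAAA and to AAACACA, a box known from H1 promoters, each searched on both strands. The windows are chr6:26234988-26235137, minus strand (HIST1H1D), chr6:26199294-26199443, minus strand (HIST1H3D) and chr1:228457953-228458102, plus strand (HIST3H2BB). HIST1H3D is annotated with 921 exon bases over a span of 2.51 kb, so not as a gene without introns. Its window precedes that annotated start, and whether the histone transcript starts there was not tested.
HIST1H1D: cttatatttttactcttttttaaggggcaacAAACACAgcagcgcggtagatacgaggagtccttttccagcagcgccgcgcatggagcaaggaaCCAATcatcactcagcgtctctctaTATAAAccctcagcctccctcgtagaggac
HIST1H3D: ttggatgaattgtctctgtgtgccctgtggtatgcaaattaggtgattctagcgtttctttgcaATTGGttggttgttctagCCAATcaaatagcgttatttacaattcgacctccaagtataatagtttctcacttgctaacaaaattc
HIST3H2BB: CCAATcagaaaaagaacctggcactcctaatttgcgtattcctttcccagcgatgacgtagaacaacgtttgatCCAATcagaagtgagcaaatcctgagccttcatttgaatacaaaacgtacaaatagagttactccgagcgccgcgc
HIST1H1D holds all 3 motifs, with CCAAT from base 55, TATAAA from base 30 and AAACACA from base 119 before the start. HIST1H3D has CCAAT on either strand, from bases 86 and 68, and HIST3H2BB has 2 copies, from bases 150 and 76. Of 41 measured replication-dependent histone genes matched in the promoter table, 34 hold CCAAT in this window (82.9%) and 23 TATAAA (56.1%), against 23.5% and 6.71% of all 35116 promoters in it and 27.8% and 3.09% of the 10494 matched genes tested in H82. All 17 histone genes called lower hold CCAAT, as do 17 of the 24 that were not. For AAACACA the counts were 5 of 41 (12.2%), against 2.71% of all promoters and 1.25% of the genes tested. These are matches of letters only.

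Of the 13 genes that held higher, GPRC5B and TP53INP1 changed most, and they were the only 2 of the 13 that also held in every fit after GC correction, where 2 genes held higher (0.0148%) and 33 lower (0.244%), 35 in all (0.259%). GPRC5B, an orphan receptor of the G-protein-coupled class C (chromosome 16, 19858971 to 19885634), stood at 12.5, 13.8 and 13.1 CPM with DMSO and 17.4, 18.1 and 17.1 CPM with lurbinectedin (0.42 ± 0.067, adjusted p = 0.00241). TP53INP1, a p53-inducible nuclear protein that acts in cell death and autophagy, stood at 22.7, 22.8 and 23.0 CPM with DMSO and 28.2, 30.3 and 30.7 CPM with lurbinectedin (0.38 ± 0.054, adjusted p = 8.48e-04). In both genes the 3 DMSO libraries lay close together and below every treated one. Of 24 measured p53 targets TP53INP1 was the only one called, where 2.92% of all genes were called. BBC3, which encodes the death-inducing protein PUMA, gave 4.41, 4.23 and 6.63 CPM with DMSO and 7.65, 7.08 and 6.54 CPM with lurbinectedin (0.48 ± 0.13, adjusted p = 0.0544), and here DMSO 3 was level with the treated libraries, so the groups overlapped (adjusted p = 5.04e-04 without it). BTG2 gave 0.13 ± 0.043, adjusted p = 0.0893 and PMAIP1 -0.18 ± 0.074, adjusted p = 0.199.

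TMEM54, a membrane protein, rose from 15.2, 15.9 and 15.3 CPM to 19.4, 21.1 and 19.7 CPM (0.38 ± 0.063, adjusted p = 0.00276). The Wnt receptor FZD2 rose from 22.7, 22.3 and 23.2 to 28.1, 30.6 and 28.8 CPM (0.36 ± 0.054, adjusted p = 0.00124), and YPEL3, a yippee-like protein tied to growth arrest, from 14.7, 13.7 and 15.2 to 18.8, 19.1 and 18.1 CPM (0.36 ± 0.065, adjusted p = 0.00526). CDC25B, the phosphatase that activates CDK1 at entry to mitosis, stood at 133, 133 and 138 CPM with DMSO and 159.6, 156 and 161 CPM with lurbinectedin (0.24 ± 0.039, adjusted p = 0.00228). In these 4 genes no DMSO library reached the treated ones. The matrix and surface genes LTBP4 (0.29), which binds latent TGF-beta, MXRA8 (0.25) and the nectin NECTIN2 (0.21) held as well. So did the cytoskeletal adaptor OBSL1 (0.26), the complement inhibitor SERPING1 (0.26), the transporter SLC22A17 (0.25) and the lipid transfer protein PITPNM1 (0.24). In LTBP4, MXRA8, OBSL1, PITPNM1 and NECTIN2 DMSO 3 was the DMSO library nearest to the treated ones, as in OBSL1 at 108, 112 and 123 CPM against 136, 137 and 138 CPM. DMSO 3 was also the nearest in FZD2, YPEL3, CDC25B and TP53INP1. After GC correction OBSL1, MXRA8, LTBP4, SLC22A17 and PITPNM1 lost their call in the 6-library fit (adjusted p = 0.0705 to 0.162). The other 8 kept it, and all 38 genes that held lower kept theirs. By the stricter rule, 24 of the 38 also held in every fit after GC correction, and CNTN5, NEGR1 and CTNNA2 were not among the 24.

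The 344 calls that did not hold lost their threshold in at least 1 leave-one-out fit, 161 of them passing in only 1 of the 6. Among those that are protein-coding, average at least 2 CPM and have groups that do not overlap, the largest rises were of low counts: the secreted protein OLFML3 stood at 1.69, 1.40 and 1.44 CPM with DMSO and 2.82, 2.46 and 2.62 CPM with lurbinectedin (0.79 ± 0.17, adjusted p = 0.0116) and CCDC136 at 1.44, 1.53 and 1.86 CPM with DMSO and 3.12, 2.58 and 2.34 CPM with lurbinectedin (0.74 ± 0.17, adjusted p = 0.0237). OLFML3 passed 4 of the 6 fits and CCDC136 2. ABTB1 (0.60) and AMN (0.56) passed 1 each. The largest falls, besides MACROD2 and FHIT, were in CDH18, a type II cadherin of 1105 kb (-0.67 ± 0.15, adjusted p = 0.0159, 2 fits), and SEMA5A, a semaphorin of 511 kb (-0.65 ± 0.16, adjusted p = 0.0285, 1 fit).

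Without DMSO 3, 1006 further genes were called, 616 higher and 390 lower. On a scale where 0 is the mean of DMSO 1 and 2 and 1 the mean of the lurbinectedin libraries, DMSO 3 lay at a median of 0.76 in the 616 genes and 0.67 in the 390. In the genes that held it lay at 0.19 (higher) and 0.066 (lower). These sets were chosen by calls made with and without DMSO 3. The difference in its place between them follows from that choice and is not a separate result. FBRSL1, a chromatin-associated protein, is an example, at 148, 143 and 183 CPM with DMSO and 175, 175 and 189 CPM with lurbinectedin. Its DMSO 3 value falls among the treated libraries and the groups overlap (0.18 ± 0.063, adjusted p = 0.116 with all libraries). HES6, a neurogenic relative of the Notch-responsive HES repressors, stood at 64.9, 67.8 and 81.3 CPM with DMSO and 77.4, 84.1 and 85.6 CPM with lurbinectedin, and the CpG-island-binding protein FBXL19 at 60.1, 60.1 and 73.0 CPM with DMSO and 74.1, 74.6 and 74.1 CPM with lurbinectedin, where DMSO 3 lay just below the treated range. Among the falls, COG3, a Golgi tether, stood at 47.1, 48.0 and 41.1 CPM with DMSO and 39.5, 41.5 and 37.8 CPM with lurbinectedin, and GNG12, a G-protein gamma subunit, at 352, 354 and 317 CPM with DMSO and 310.3, 322 and 304 CPM with lurbinectedin. The median transcript GC content was 60.3% in the 616 higher and 40.2% in the 390 lower genes. In the GC-corrected fit to 6 libraries 4 of the 616 and 7 of the 390 were called. All were chosen as not called by the uncorrected fit to the same 6 libraries. Few calls there follow in part from that choice and are not a separate result.

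In the Notch pathway 4 of 30 measured genes were called higher and 1 lower, and none held, where 1.55% and 1.38% of all genes were called higher and lower. The ligand DLL3, an inhibitory Notch ligand on the surface of small-cell lung cancer, stood at 98.6, 95.3 and 112 CPM with DMSO and 115, 124 and 126 CPM with lurbinectedin (0.25 ± 0.053, adjusted p = 0.0116). The glycosyltransferase LFNG, which modifies Notch receptors, stood at 16.0, 16.0 and 18.4 CPM with DMSO and 20.7, 20.9 and 20.7 CPM with lurbinectedin (0.31 ± 0.065, adjusted p = 0.0116). The feedback inhibitor NRARP (0.28) and the ligand JAG2 (0.20) were the other rises, and the coactivator MAML2, a gene of 367 kb, was the fall (-0.22). DLL3 and LFNG each passed 2 of the 6 leave-one-out fits, and after GC correction none of the 30 was called (DLL3 adjusted p = 0.158, LFNG 0.0829).

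Neuroendocrine markers and lineage factors changed little, in a fit that called 2.92% of all genes. Of 29 measured neuroendocrine markers, ELAVL3 (0.23), a neuronal RNA-binding protein, and TUBB3 (0.14), the neuronal tubulin, were called higher, and neither held or was called after GC correction. INSM1, the neuroendocrine zinc-finger factor, stood at 11.6, 11.3 and 12.7 CPM with DMSO and 13.1, 14.3 and 15.8 CPM with lurbinectedin (0.28 ± 0.079, adjusted p = 0.0581), and ISL1 at 3.94, 3.34 and 3.56 CPM with DMSO and 3.08, 3.52 and 4.66 CPM with lurbinectedin (0.05 ± 0.15, adjusted p = 0.892). MYCL (0.14 ± 0.045, adjusted p = 0.102) and MYCN (0.21 ± 0.11, adjusted p = 0.350) did not pass, and SLFN11 was not analysed here. None of 20 lineage transcription factors was called. Of 17 measured non-neuroendocrine, epithelial and mesenchymal genes, vimentin (VIM) was called at 3.16, 3.02 and 2.79 CPM with DMSO and 4.04, 4.19 and 4.44 CPM with lurbinectedin (0.50 ± 0.13, adjusted p = 0.0370), and so was TEAD2, a Hippo-pathway transcription factor (0.22 ± 0.058, adjusted p = 0.0396). Both passed 1 of 6 leave-one-out fits, and the summed level of the 17 was 373 to 388 CPM with DMSO and 387 to 400.3 CPM with lurbinectedin.

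Genes of DNA damage and stress pathways gave few calls, but only 2.92% of all genes were called. Lists of this size cannot show fewer calls than that share. None of 31 homologous recombination genes and none of 23 nucleotide excision repair genes was called, and 1 of 18 Fanconi genes was: FANCC, of 219 kb (-0.22 ± 0.053, adjusted p = 0.0237), in 1 of 6 leave-one-out fits. Of 44 DNA replication and E2F target genes the licensing factor CDT1 was higher (0.21 ± 0.043, adjusted p = 0.0106) and the cyclin CCNE2 lower (-0.22 ± 0.060, adjusted p = 0.0479), and neither was called after GC correction. Of 40 mitotic genes CDC25B and the ubiquitin ligase UBE2C (0.18 ± 0.037, adjusted p = 0.0116) were higher and the kinesin CENPE lower (-0.20 ± 0.050, adjusted p = 0.0310). In the integrated stress response 1 of 29 genes was called, and it fell: SLC7A11, the cystine transporter, stood at 15.0, 16.7 and 16.4 CPM with DMSO and 12.5, 12.0 and 13.1 CPM with lurbinectedin (-0.35 ± 0.071, adjusted p = 0.0105, passing 4 of 6 fits). The stress factor ATF3 stood at 12.2, 14.1 and 11.4 CPM with DMSO and 13.9, 12.2 and 12.1 CPM with lurbinectedin, with no difference between the groups beyond their spread (0.02 ± 0.084, adjusted p = 0.935). None of 22 unfolded protein response, 21 heat shock, 13 BCL2 family and 14 NF-kB target genes was called.

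Genes of ribosomes, oxidative phosphorylation and structural RNAs gave 1 or 2 calls a list with all libraries, where 1.55% of all genes were called higher. They gave more without DMSO 3. Of 77 cytosolic ribosomal protein genes, RPS21 (0.21 ± 0.054, adjusted p = 0.0348) and RPS29 (0.24 ± 0.062, adjusted p = 0.0357) were called higher with all libraries and 18 without DMSO 3, where 6.08% of all genes were called higher. For 51 nuclear-encoded genes of oxidative phosphorylation the counts were 2 and 11, with NDUFA2 at 22.4, 26.1 and 23.4 CPM with DMSO and 33.3, 27.3 and 28.2 CPM with lurbinectedin. For 14 abundant structural RNAs they were 1 and 8. The telomerase RNA TERC was the 1, at 36.9, 43.6 and 44.2 CPM with DMSO and 55.7, 46.1 and 53.5 CPM with lurbinectedin (0.32 ± 0.067, adjusted p = 0.0116). None of these genes held. With GC content corrected for and without DMSO 3, 9 ribosomal protein, 6 oxidative phosphorylation and 3 structural RNA genes were called higher. In that fit 152 of all 13516 genes were.

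H82 was then set beside SHP-77, the other line named as low in ISL1, by testing the difference between the 2 responses in 1 model over 12 libraries. Of 12197 genes listed for both lines, 25 passed (0.205%), 15 with a higher and 10 with a lower response in H82, and 1230 had an unadjusted p under 0.05. Without DMSO 3 the count was 113, and it was between 9 and 17 without any other H82 library. In 6 genes, 4 of them named here, the difference held in every fit that left out an H82 library. LFNG was higher in H82 (0.31) and gave -0.19 in SHP-77, a difference of 0.50 ± 0.08, adjusted p = 0.00373. GPC6 fell in both lines but less in H82 (-0.30 against -0.74, a difference of 0.44 ± 0.05, adjusted p = 7.82e-05). The kinase GRK5 (0.42 ± 0.07, adjusted p = 0.00373) and the stress-responsive NDRG1 (0.34 ± 0.05, adjusted p = 0.00340) were also higher in H82.

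Against the mean response of SHP-77, H187 and H209, tested over all 24 libraries and 11408 genes, 1678 genes differed (14.7%), 749 with a higher and 929 with a lower response in H82 (6.57% and 8.14%). Of these, 856 held in every fit that left out an H82 library. In the integrated stress response 27 of 29 genes had a lower response in H82. In the comparison with SHP-77 alone 1 of 29 did, where 0.205% of all genes differed. INHBE, an activin subunit induced by that response, gave -0.09 in H82, 0.25 in SHP-77, 1.61 in H187 and 1.87 in H209 (difference -1.34 ± 0.08, adjusted p = 1.80e-15). ATF3 gave 0.02, 0.01, 1.42 and 2.53 in the same order (-1.31 ± 0.08, adjusted p = 1.16e-14), and the glutathione-degrading enzyme CHAC1 -0.17, 0.05, 1.64 and 1.47 (-1.23 ± 0.14, adjusted p = 4.35e-08). STC2 (-1.06 ± 0.10, adjusted p = 2.17e-10) and SESN2 (-0.93 ± 0.08, adjusted p = 7.49e-11) were the next largest. In INHBE, ATF3 and CHAC1 the value for SHP-77 lay nearer to that for H82 than those for H187 and H209 did.

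Genes of proliferation and of ribosomes differed in the same comparison. The response was lower in H82 for 40 of 44 DNA replication genes, 17 of 31 homologous recombination genes and 28 of 48 replication-dependent histone genes. Over all genes tested, 8.14% had a lower and 6.57% a higher response in H82. Against SHP-77 alone, 1 of the 44, 0 of the 31 and 0 of the 48 differed, where 0.205% of all genes did. The response was higher in H82 for 26 of 40 mitotic genes, 34 of 77 ribosomal protein genes and 19 of 51 genes of oxidative phosphorylation. Against SHP-77 alone none of these 3 lists had a gene that differed. At a share of 0.205%, lists of this size cannot show fewer calls than all genes. Of the 339 listed genes of 300 kb or more, 121 had a higher response in H82, and 6 a lower one. Against SHP-77 alone, 5 of 416 such genes had a higher and 2 a lower response, where 0.205% of all genes differed. The median difference over the 416 genes was 0.03. The median log2 fold change was -0.17 over 502 such genes in H82 and -0.18 over the 416 in SHP-77. MACROD2 (1.16 ± 0.18, adjusted p = 1.09e-05), GPC6 (1.14 ± 0.06, adjusted p = 3.13e-17), AKAP6 (1.00 ± 0.08, adjusted p = 1.74e-11) and NCKAP5 (0.79 ± 0.08, adjusted p = 9.76e-09), all of them long, showed the largest such differences among the protein-coding genes that held, followed by the helicase gene PIF1 (0.77 ± 0.14, adjusted p = 7.78e-05). GPC6, for example, gave -0.30 in H82, -0.74 in SHP-77, -1.66 in H187 and -1.93 in H209.

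The falls that held in H82 were called in the other lines too, in their own fits to separate libraries. Of the 38 genes, 35, 34 and 32 were listed for SHP-77, H187 and H209, and 30, 30 and 28 of these were called lower there, where 3.21%, 12.7% and 22.5% of all genes were called lower. The median log2 fold changes of those genes were -0.30, -0.74 and -0.74, against -0.35, -0.34 and -0.34 in H82. In H209 2 of the 32 were called higher, HIST1H3D (0.09) being one of them. The 13 rises were less widely called: 4 of 10 listed in SHP-77, 3 of 9 in H187 and 2 of 11 in H209 were called higher, against 1.98%, 12.2% and 22.7% of all genes. CDC25B was called lower in H187 (-0.17) and H209 (-0.12), TP53INP1 in H187 (-0.28) and FZD2 in H209 (-0.61).

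**Figure D5:**
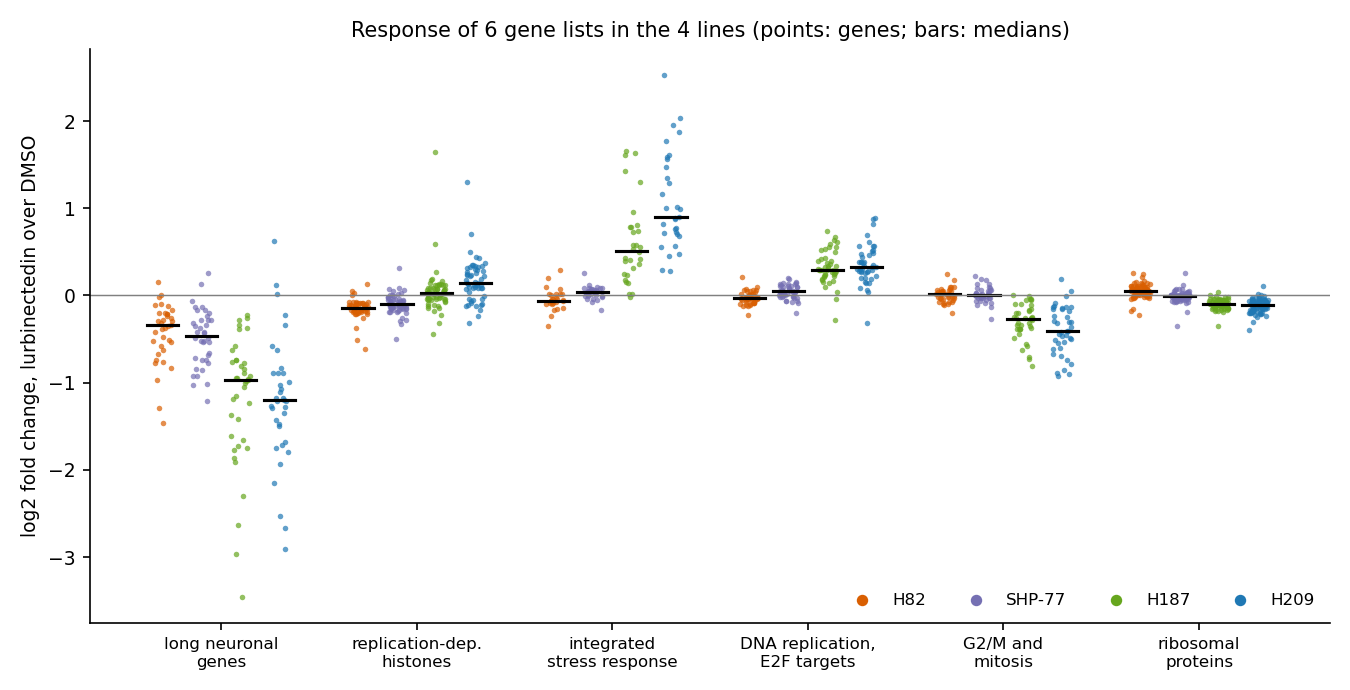
Log2 fold change of lurbinectedin over DMSO for the measured genes of 6 lists (groups on the horizontal axis) in H82, SHP-77, H187 and H209, each from its own fit; points are genes and black bars medians. The median of the long neuronal list lies below 0 in all 4 lines (-0.34 in H82), and that of the integrated stress response list is -0.06 in H82, 0.04 in SHP-77, 0.52 in H187 and 0.90 in H209.

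In the authors' deposited table of this comparison 652 genes had a false discovery rate under 0.05 (4.82%), 374 higher and 278 lower. All 395 genes called by the fit to 6 libraries, the 51 that held among them, were in that set.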

How the data were processed

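RNA was isolated with RNeasy Plus and 100 ng was made into libraries with the Illumina Stranded Total RNA kit with Ribo-Zero Plus, per the labels' protocols. The tools named in the submitters' processing notes are STAR 2.7.10a, featureCounts and Subread 2.0.3, with edgeR 4.2.0 and the build hg38; how strand and multi-mapping reads were treated is not given in the sources used here. The deposited table of each line, 4 in all, holds raw counts per gene (in H82 13516 genes, each with at least 15 counts in 1 library), the exon coordinates, and the authors' log2 fold changes, p-values and false discovery rates.

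From the deposited counts, H82 was refitted with edgeR 4.0.16 in R 4.3.3 (filterByExpr with a minimum count of 10, which removed no gene; TMM; quasi-likelihood test; Benjamini-Hochberg threshold 0.05), with 3 libraries a group and again without each library in turn, where the shortened group has 2 libraries. Differences between responses are contrasts in the same model over 12 or 24 libraries, on genes listed in every table used; comparisons that use the H82 libraries share them. CPM are TMM-scaled. Standard errors come from the fit. Log2 deviations between libraries use CPM plus 0.5 and genes above 16 CPM. Genomic span is the distance between the outermost exon coordinates in the deposited table (13311 genes at a single locus), and GC content that of the longest GENCODE v29 transcript (13154 genes, 97.3%). The correction for GC content subtracts, in each library, a lowess curve (span 0.3) of log2 level on GC, and was chosen after seeing the data. Biotypes are from RefSeq (13349 genes matched). Depth was 30425305 to 36415190 counts a library. With 3 cultures a group, p-values measure the spread between these cultures of 1 line. No 2 libraries held the same counts within sampling noise. The fits were tested on simulated data.

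Genes named are a fixed panel (DLL3, INSM1, ISL1, NEUROD1 and the MYC family), the 12 largest changes in each direction among protein-coding genes that held, averaged at least 2 CPM and had groups that did not overlap, the 4 largest in each direction that did not hold, the 4 with the smallest p in each direction that were gained without DMSO 3, up to 4 members per list by p, and the 5 largest response differences in each direction. Other genes, the remaining genes that held among them, were chosen after their values were seen. Some genes that these rules name are not reported here. The members and the 32 gene lists were chosen with earlier results of these data known. Alternatives were other size factors (RLE), DESeq2 1.42.0, other filters, a replicate block, all libraries in 1 fit and each library left out.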

Additional observations from a re-analysis of the deposited data

Results flagged for a closer look

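Results are listed here because the test of the difference between 2 responses itself passed in every fit that left out an H82 library. Against SHP-77 the response of H82 was higher in LFNG (0.50 ± 0.08, adjusted p = 0.00373), GPC6 (0.44 ± 0.05, adjusted p = 7.82e-05), GRK5 (0.42 ± 0.07, adjusted p = 0.00373) and NDRG1 (0.34 ± 0.05, adjusted p = 0.00340), as differences of log2 fold changes with their standard errors. Against the mean of SHP-77, H187 and H209 it was higher in MACROD2 (1.16), GPC6 (1.14), AKAP6 (1.00), NCKAP5 (0.79) and PIF1 (0.77). It was lower in INHBE (-1.34), ATF3 (-1.31), CHAC1 (-1.23), STC2 (-1.06) and SESN2 (-0.93). Each line has its own 6 libraries, so a difference between lines cannot be told apart from one between these sets of libraries. Groups of 3 libraries are too small for the test of single libraries that stand apart.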

How the results depend on the processing

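The number of genes called in H82, 395, was 402 with RLE size factors, 395 with no filter on low counts, 373 with a mean of at least 1 CPM and 298 with DESeq2. It was 182 after GC correction (and 386 with that correction and without DMSO 3), 643 with all 24 libraries in 1 fit, 755 with a replicate block and 652 in the authors' deposited table, and between 93 and 1397 when a library was left out. The 51 genes that held became 63 with RLE size factors, 52 with at least 1 CPM, 42 with DESeq2, 62 with the replicate block and 35 after GC correction, of which 51, 45, 35, 32 and 26 were among the 51. The labels give replicate numbers, but same-numbered libraries did not deviate together (correlations of 0.01, -0.14 and 0.33), and 2 of 6 libraries correlated best with their own number. The number of genes that differed in response from SHP-77, 25, was 44 with DESeq2, 16 with the replicate block, 37 after GC correction and 9 to 113 with a library left out, the highest without DMSO 3. Against the other 3 lines the 1678 genes became 1472 with the block and 1201 to 1945 with a library left out. The median log2 fold change of long genes was -0.17, -0.18 to -0.16 with a library left out and -0.21 for the 301 genes of 400 kb or more. None of the 94 named genes called in H82 changed direction under any alternative run. Many were named because they held, and the alternatives share their libraries, so a reversal was unlikely from the start. Among genes not called, the log2 fold change crossed 0 with a library left out in ISL1 (-0.13 to 0.17), ATF3 (-0.045 to 0.10), SESN2 (-0.023 to 0.042) and DMD (-0.0045 to 0.071). SESN2 gave -0.054 after GC correction, and with GC correction and without DMSO 3 the values were -0.027 for ATF3, -0.044 for SESN2 and -0.024 for PIF1. The cause of these changes was not tested. Calls of genes under about 4 CPM, such as CNTN5, NEGR1 and OLFML3, rest on few counts, and 3 libraries a group limit what can be called.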
